A study of Homo sapiens with 6 samples.

Results

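Of the 2723 genes with a pair of poly(A) sites (PASs) compared in their 3’ UTR, 424 (15.6%) had a proximal PAS (pPAS) and a distal PAS (dPAS) that lay 2500 nt or more apart on the transcript. These 424 long pairs were chosen by distance alone, as the position of the dPAS minus that of the pPAS along the strand of the gene. The cells were HL-60, an established line from a human promyelocytic leukemia. OE-CFIm25 cells carried a lentiviral coding sequence of CFIm25 under the EF-1a promoter, and OE-control cells carried the same vector with no insert. Both groups had passed puromycin selection and were taken 6 h after addition of 3 nM PMA, a phorbol ester that drives these cells toward macrophages, with 3 samples in each group. QuantSeq 3’ end libraries mark the PAS that was used, and the 6 libraries held 3525582 to 3845872 reads at known PASs in genes (median 3603012). The libraries are numbered with no condition in the deposited statistics, so depth is given over all 6. The change in PAS use is given as RED (relative expression difference), the log2 ratio of dPAS to pPAS reads in OE-CFIm25 minus the same log2 ratio in the control cells. RED above 0 stands for relatively more of the long isoform and RED below 0 for relatively more of the short isoform. Each RED and each adjusted p below is the authors' deposited value, 1 per gene for the comparison of both groups. No value per sample was in the table, so the spread between samples cannot be shown and no test of reads was run. RED gives no mRNA level, so the labelled cell type was not checked against its markers.

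Alternative polyadenylation sets where the 3’ UTR of an mRNA ends. Cleavage occurs shortly after a poly(A) signal, most often AAUAAA or AUUAAA in the RNA, and the stretch between the pPAS and the dPAS is present only in the long isoform, where it can hold binding sites of microRNAs and RNA-binding proteins. CFIm25, encoded by NUDT21, is the subunit of cleavage factor Im that recognizes UGUA upstream of many PASs. In many cell types its loss moves PAS use toward the pPAS. A long pair is therefore a gene in which the choice of PAS adds or removes a large part of the 3’ UTR.

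Both PASs of the 8 long pairs of lowest adjusted p are shown first, because they show which sites hold a poly(A) signal and which are followed by A-rich genome sequence. All are genome sequence of hg19 (GRCh37) in transcript sense, written 5’ to 3’ in the DNA alphabet, with 30 bases each. Only AATAAA and ATTAAA were searched as signals, so a PAS with no signal is one with neither of these. Where a signal was found within 40 nt upstream of the PAS, the 30 bases end at the PAS and the signal is in capitals.
UCK2 dPAS: tttgctgtaAATAAAgacagacaaaaaggc
TBL1XR1 dPAS: gaggtccagAATAAAatatattttgatatt
SNRPD3 pPAS: agctaAATAAAtctggggggttttttgttc
SNRPD3 dPAS: tattaagatgtgATTAAActttttaaaaat
CACUL1 dPAS: aaaaaaAATAAAtattttgtattgattctc
RAD54L2 dPAS: ttctctttttgtaaAATAAAatttaaactc
MKLN1 dPAS: tttcttAATAAAatgttatatatggatgct
CD180 pPAS: AATAAAtttaaaagaaaaggctgagaaatg
Where no signal was found, the last 10 bases up to the PAS are in lower case and the 20 bases after it in capitals.
UCK2 pPAS: ataaaaaaggATCTATTTTTGTGTAAATGT
TBL1XR1 pPAS: gttattgtttAAAAAAAATAAATAAAAATT
CDK6 pPAS: aaaaggagaaAAAATTCTAGTATATTTTAA
CDK6 dPAS: tctaatttggAAATTTGACTTGTTAGTTTC
CACUL1 pPAS: aaaaaacgttGCTGCTAGACTTGGGGGTGA
RAD54L2 pPAS: acaaaagaggCAAAAAAAAAAAAAAAAAAA
MKLN1 pPAS: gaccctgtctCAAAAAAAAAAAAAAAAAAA
CD180 dPAS: agtatgaaacAAATGGCTCTTGAATGTTTT
In TBL1XR1, RAD54L2 and MKLN1, the pPAS had no signal and was followed by 16, 19 and 19 A in 20 nt, in that order. Oligo(dT), which primes reverse transcription in this method, can also anneal to such A-rich stretches inside a transcript.

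The calling rule asked for a RED above 0.26 or below −0.26, a change of 1.2-fold in the ratio, together with an adjusted p under 0.05. By this rule, 1 long pair was lengthened, 1 was shortened and 422 were not called. That is 0.472% of the long pairs, beside 0.367% called over all 2723 genes, so the share of calls was near the background, which by direction was 0.0734% lengthened and 0.294% shortened. Among the 717 pairs that lay 1000 to under 2500 nt apart, 1 was called, a shortened pair. No test of these shares was run.
The lengthened gene was UCK2, which phosphorylates uridine and cytidine in pyrimidine salvage. The authors' table lists it with a RED of 0.99 at an adjusted p of 0.0199. The dPAS was thus used 1.99-fold more relative to the pPAS. Its PASs lay on the plus strand of chromosome 1 at 165877345 and 165880855, in the 3’ UTR of exon 7. The pPAS of UCK2 was 285 nt and its dPAS 3795 nt past the stop codon, so the long 3’ UTR was 13.3 times as long as the short 3’ UTR.
TBL1XR1, part of the NCoR and SMRT corepressor complexes, was the shortened gene, and the authors' table lists it at −0.85 RED, adjusted p 0.0375. Its dPAS was used 1.80-fold less relative to its pPAS. Its PASs lay on the minus strand of chromosome 3 at 176741135 and 176738543, in the 3’ UTR of exon 16, 2151 and 4743 nt past the stop codon. TBL1XR1 has the A-rich pPAS shown above, and its RED pointed to that pPAS, whereas UCK2 has 5 A in the 20 nt after its pPAS. By quantitative PCR of long over total transcripts, the paper also reports TBL1XR1 as shortened and UCK2 as lengthened in HL-60 and THP-1 cells overexpressing CFIm25. The part of A-rich sequence in the value of TBL1XR1 was not tested.

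The long pairs next in line passed the RED threshold but not the p. SNRPD3, the Sm protein D3 of the spliceosome, was listed by the authors at −0.80 RED, adjusted p 0.0711. At an adjusted p under 0.10 it would be the third long pair called, beside 0.624% of all genes. The PASs of SNRPD3, at 24968102 and 24970938 on chromosome 22, both had a poly(A) signal, and its dPAS also lay within another annotated coding gene of the same strand. CDK6, the cyclin D partner that acts in G1, came next with −0.60 RED, adjusted p 0.124. The CDK6 pair was among the longest, with PASs 684 and 8512 nt past the stop codon on chromosome 7, and neither PAS had a signal. CACUL1, a cullin domain protein that binds CDK2, had a RED of 0.65.
RAD54L2, a helicase-like protein of the SNF2 family, had one of −0.91, from a pair 5065 nt apart whose dPAS lies inside the annotated gene TEX264, and both CACUL1 and RAD54L2 had an adjusted p of 0.212. MKLN1 (muskelin), of a ubiquitin ligase complex, had a RED of −0.82, and CD180, a Toll-like receptor family protein, had a RED of 0.98, both with an adjusted p of 0.235. SPN, the leukocyte surface protein CD43, had a RED of −0.51 at an adjusted p of 0.240, with its dPAS, itself A-rich, in the annotated gene QPRT. MTAP of methionine salvage (RED 0.80), CTDSPL2, a phosphatase-like protein (0.76), PIK3R1, the p85α subunit of PI3K (0.68), and PDCD6IP, the ESCRT adaptor ALIX (−0.73), shared an adjusted p of 0.292.
Of these 13 long pairs of lowest adjusted p, 6 had a positive and 7 a negative RED. The pPAS was followed by A-rich sequence in 5 of the 13, with a negative RED in TBL1XR1, RAD54L2, MKLN1 and SPN and a positive RED in PIK3R1. A poly(A) signal stood before 5 of their 13 pPASs and 11 of their 13 dPASs.

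**Figure D1:**
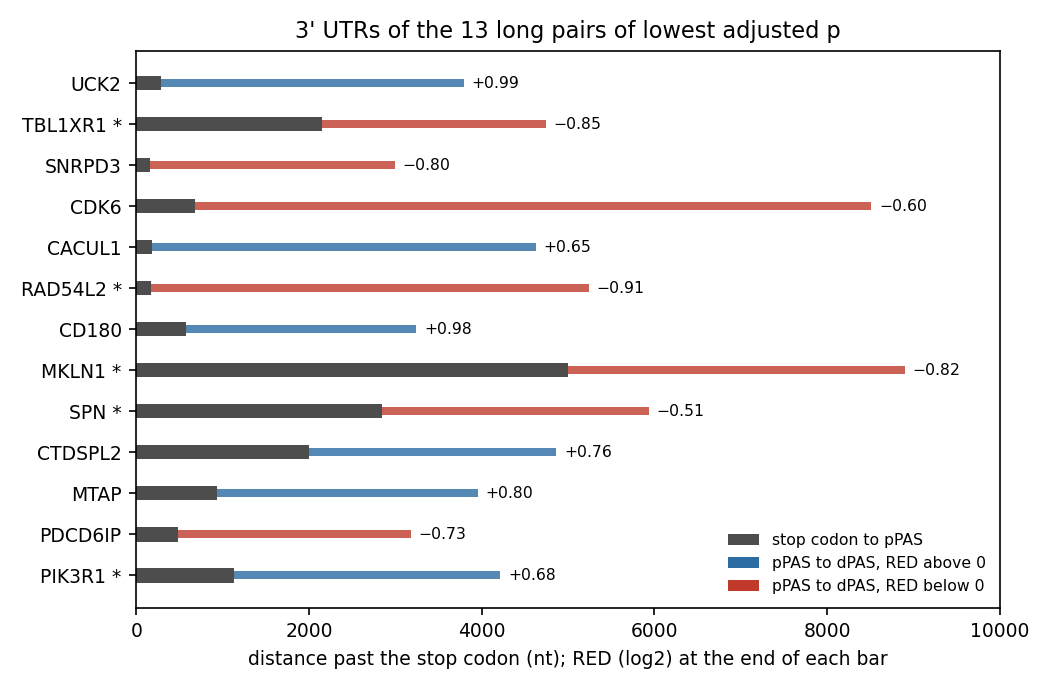
The 3’ UTRs of the 13 long pairs of lowest adjusted p, drawn as distance past the stop codon in nt (x axis), with a dark bar up to the pPAS, a colored bar from the pPAS to the dPAS (blue for a RED above 0, red for a RED below 0) and the RED (log2) at its end. An asterisk marks the 5 genes with A-rich sequence after the pPAS, of which TBL1XR1, RAD54L2, MKLN1 and SPN have a red bar.

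The RED of the long pairs was spread evenly around 0. The median RED was 0.00, with quartiles of −0.27 and 0.26 and an SD of 0.444 over genes (n = 424). A negative RED was found in 208 long pairs, a positive RED in 211 and a RED of 0 in 5. Closer pairs leaned slightly to the short isoform, with a median RED of −0.03, quartiles of −0.29 and 0.22 and an SD of 0.415 (n = 2299). A negative RED made up 49.1% of the long pairs, beside 54.0% of the closer pairs and 53.3% of all pairs. By distance, this share was 50.7% under 100 nt, 52.2% from 100 to under 250 nt, 55.0% from 250 to under 500 nt, 57.5% from 500 to under 1000 nt and 53.3% from 1000 to under 2500 nt. The long pairs thus had the lowest share of these 6 classes, close to that of the pairs under 100 nt, and the share did not move one way with distance. The median RED was −0.01, −0.03, −0.055, −0.05 and −0.03 in the same 5 classes, so that all 6 medians lay between −0.055 and 0.00. Genes are not replicates, and no test of these differences was run.
The RED threshold alone was passed by 213 long pairs, 105 above and 108 below it. That is 50.2% of the long pairs, beside 48.8% of all genes. For the direction below the threshold the background was 27.1%, and for the direction above it 21.7%. A RED of 1 or more in size was found in 16 long pairs, which is 3.77%, beside 2.86% of all genes. The spread of the middle values was also close to that of other pairs, with an interquartile range of 0.53 in the long pairs, 0.51 from 1000 to under 2500 nt and 0.528 under 100 nt. The extremes were narrower, from −1.21 to 1.30 in the long pairs and from −2.10 to 1.97 in the closer pairs, which are more numerous.

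**Figure D2:**
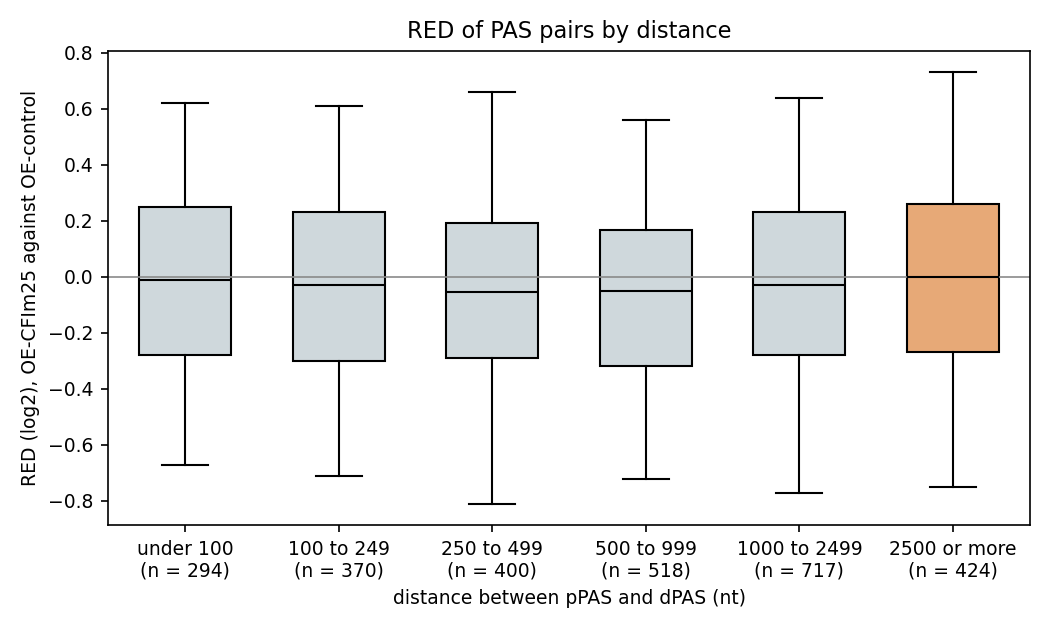
RED (log2, y axis) of PAS pairs in 6 classes of distance between the pPAS and the dPAS (x axis, nt), with the median as a line, the quartiles as a box and the 5th and 95th percentiles over genes as whiskers. The box of the long pairs (orange) is centered at 0.00, while the medians of the other 5 classes lie between −0.055 and −0.01.

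The distances themselves ran from 2501 to 67373 nt, with a median of 3498.5 nt and quartiles of 2931.75 and 4628.75 nt. A distance of 5000 nt or more was found in 84 long pairs, and one of 10000 nt or more in 7. The median RED was 0.02 from 2500 to under 3500 nt (212 pairs), −0.045 from 3500 to under 5000 nt (128 pairs) and 0.03 at 5000 nt or more (84 pairs). The RED threshold was passed in either direction by 111, 64 and 38 of them in the same order, which is 52.4% in the first and 45.2% in the last class, and the SD over genes was 0.481, 0.401 and 0.412. Spearman's rank correlation over the 424 genes was −0.0027 between RED and distance and −0.073 between the size of RED and distance, and genes share the libraries.
The 10 longest pairs had RED values from −0.17 to 0.44, and none was called. TNRC6B, a scaffold of microRNA silencing, had PASs 11918 nt apart and a RED of 0.04. AGO2, the Argonaute protein that TNRC6 proteins bind, had a RED of −0.17 over 11186 nt, and the kinase gene HIPK2 one of −0.15 over 11064 nt. CBX5, which encodes the heterochromatin protein HP1α, had the highest RED of the 10 longest pairs, at 0.44 over 10675 nt, followed by FBXO25 at 0.30 and PDK3, a pyruvate dehydrogenase kinase, at 0.28. POU2F1 (Oct-1) had a RED of −0.11, NDUFS1 of respiratory complex I one of −0.07 and FBXO22, of an SCF ubiquitin ligase, one of 0.08. The pair of ANKHD1, 67373 nt apart, does not lie in 1 exon, since its dPAS is in the annotated read-through gene ANKHD1-EIF4EBP3. Its RED was 0.05. The adjusted p of these 10 pairs ran from 0.794 to 0.986. At the other end, the pairs just inside the limit were ARF3 (2501 nt, RED 0.07), FLVCR1 (2509 nt, RED −0.83) and GPR157 (2509 nt, RED −0.21), with RBMXL1 also at 2509 nt. None of these was called. Those just outside were TOMM20 (2488 nt, RED −0.32), SBNO1 (2481 nt, RED 0.22) and WDR37 (2480 nt, RED −0.08).

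**Figure D3:**
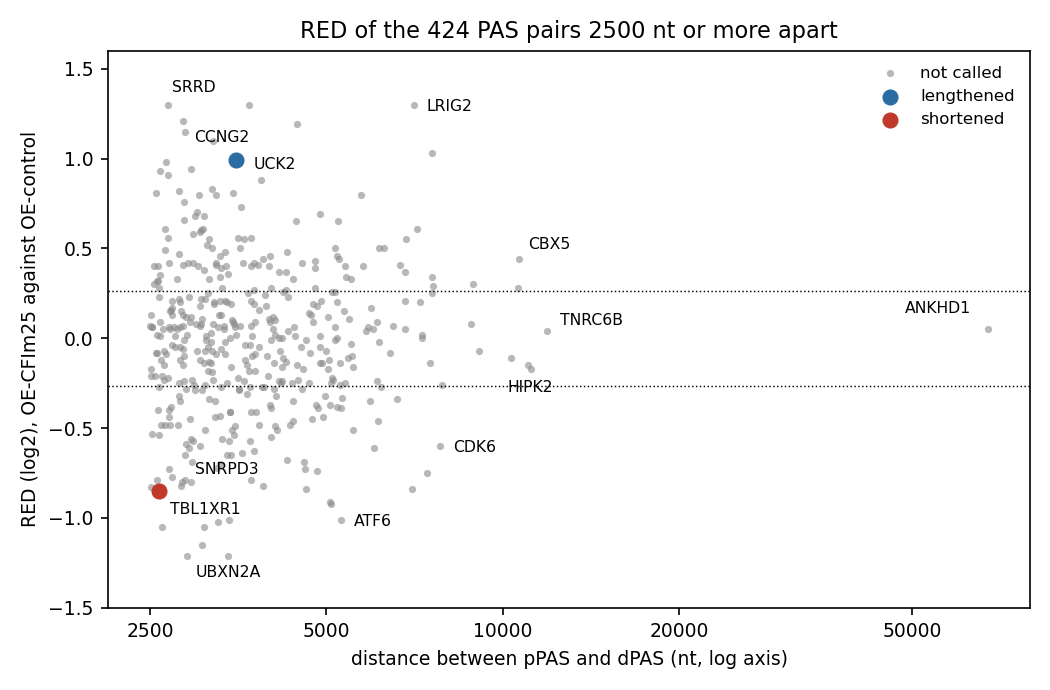
RED (log2, y axis) of each of the 424 long pairs against the distance between its PASs (x axis, nt, log scale), with dotted lines at the RED threshold of 0.26 in either direction and the called genes UCK2 (blue) and TBL1XR1 (red) as large points. Points scatter on both sides of 0 over most of the range of distances, and of the 10 longest pairs 3 lie above the upper line and 0 below the lower line.

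The RED values farthest from 0 were not those of lowest p. A RED of 1 or more was found in 8 long pairs and a RED of −1 or less in another 8, and none of these was called, with adjusted p-values from 0.396 to 0.848. At the top, SRRD, the tetraspan protein gene EMP2 and LRIG2, a leucine-rich repeat membrane protein gene, each had a RED of 1.30. CCNG2, cyclin G2, a cyclin of arrested cells, had a RED of 1.21 from PASs with AATAAA on both sides. FAM199X (1.19), MTMR3, a phosphoinositide phosphatase (1.15), ANKRD9 (1.10) and DISP2 (1.03) followed. At the bottom, UBXN2A, a cofactor of the ATPase p97, and BCLAF3 each had a RED of −1.21. Of the 8 pairs at the top, the pPAS was A-rich in EMP2 (18 A in 20 nt) and the dPAS in DISP2. Of the 8 at the bottom, the pPAS was A-rich in ATF6 and the dPAS in UBXN2A (19 A), DCTN5 (17 A) and HOXA13. ARFGEF2, which activates ARF GTPases at the Golgi, had a RED of −1.15, HOXA13 and the centrosomal gene CEP89 each one of −1.05, the dynactin gene DCTN5 one of −1.02, and KLF3 and the endoplasmic reticulum stress sensor ATF6 each one of −1.01. Reads per PAS were not part of the table, so how deeply each of these genes was covered is unknown.

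Most long pairs were ordinary tandem 3’ UTRs. By the GENCODE annotation, 418 of the 424 pairs fell in 1 annotated last-exon 3’ UTR. The exceptions were ANKHD1, ARPIN-AP3S2, BORCS8, FIGNL1, MED22 and MPLKIP, with RED values from −0.32 (BORCS8) to 0.93 (MED22), and none was called. In MAFG and TRIM13, another coding gene of the same strand, SIRT7 and KCNRG, begins between the PASs. The dPAS lay within another annotated coding gene of the same strand in 22 long pairs, read-through genes included, and a coding gene of the opposite strand overlapped the stretch between the PASs in 42.
The pPAS of the long pairs lay at a median of 652 nt past the stop codon, in the 404 genes where the stop codon is in the same exon, beside 559 nt in 2215 closer pairs. The dPAS lay at a median of 4554.5 nt, beside 1453 nt. The dPAS thus differed more than the pPAS, and a difference of this kind is built into the choice by distance. In 154 of the 404 genes the long 3’ UTR was at least 10 times as long as the short 3’ UTR, and the median was 6.50 times.

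Long pairs whose dPAS had a poly(A) signal were more numerous than those whose pPAS had one. Only AATAAA and ATTAAA were searched, on the transcript strand within 40 nt upstream of the site. Either was found at the pPAS of 225 long pairs (53.1%) and at the dPAS of 358 (84.4%). Over all 2723 pairs, the shares were 55.5% and 80.3%, and in 40 nt farther upstream of the long pairs they were 2.83% and 3.77%. A signal at the dPAS and none at the pPAS was found in 170 long pairs (40.1%), beside 33.9% of the closer pairs, and the reverse in 37 (8.73%), beside 10.3%. SNRPD3 and CCNG2 are among the 188 long pairs with a signal at both sites, and UCK2 and TBL1XR1 among the 170 with a signal at the dPAS alone.
UGUA, searched as TGTA on the transcript strand, was also more frequent at the dPAS. In the 100 nt up to the PAS, it occurred at least once at 43.2% of the pPASs and 69.1% of the dPASs of long pairs. Those shares were 48.3% and 61.6% from 1000 to under 2500 nt. Over all 2723 pairs, 1345 pPASs and 1633 dPASs held it. The dPAS held more UGUA than the pPAS in 200 long pairs (47.2%), as many in 144 and fewer in 80 (18.9%). From 1000 to under 2500 nt, 40.9% held more and 22.9% fewer, and under 100 nt, where both windows overlap, 21.1% held more and 30.3% fewer. The mean was 1.14 ± 1.05 at the dPAS and 0.620 ± 0.878 at the pPAS (SD, n = 424 genes), with a difference of 0.519, beside 0.301 from 1000 to under 2500 nt. The A and T content of these 100 nt windows was close to that of the next class, at 61.5% for the pPAS and 66.0% for the dPAS in long pairs and 61.5% and 65.6% from 1000 to under 2500 nt. These counts describe the reference genome, with no test, and a match is not a bound site. Of the named genes, VMA21, a V-ATPase assembly factor, had 6 UGUA at its dPAS and 0 at its pPAS, with a RED of 0.00, and MKLN1 had 5 against 0, with a RED of −0.82.

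**Figure D4:**
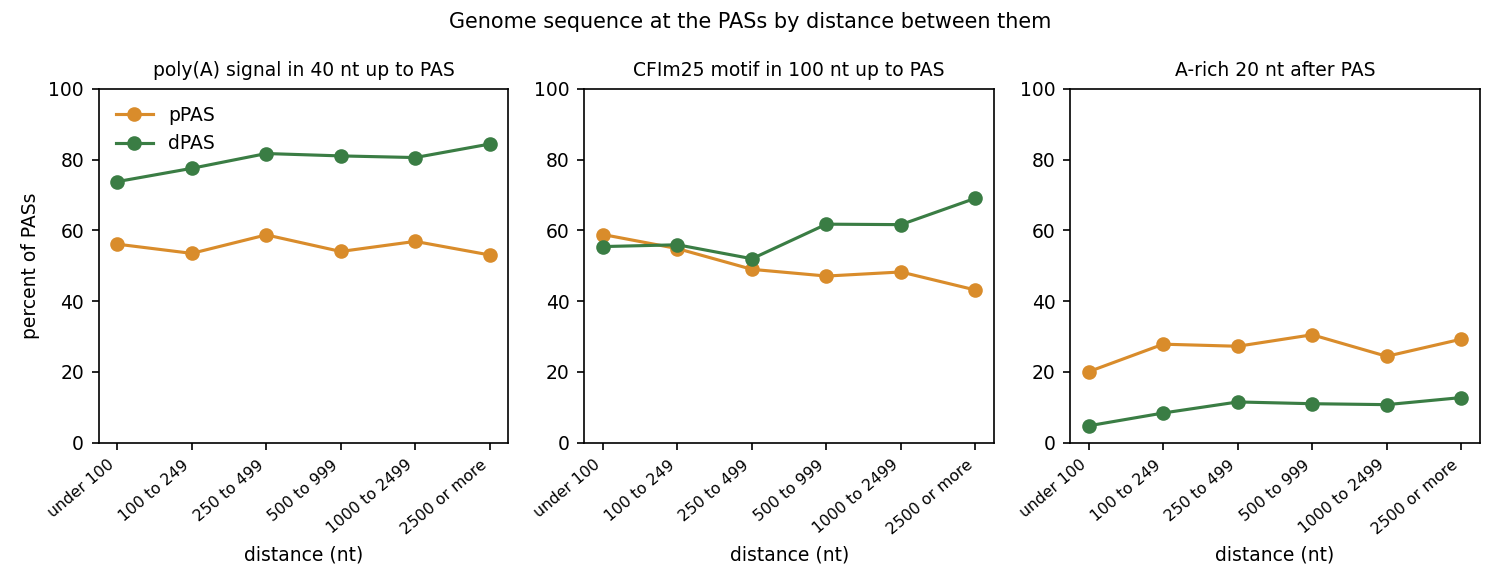
Percent of pPASs (orange) and dPASs (green) in each class of distance (x axis, nt) with a poly(A) signal in the 40 nt up to the PAS, with UGUA, the CFIm25 motif, in the 100 nt up to the PAS, and with A-rich sequence in the 20 nt after the PAS. In the long pairs the shares for pPAS and dPAS are 53.1% and 84.4%, 43.2% and 69.1%, and 29.2% and 12.7%, in the order of the panels.

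The medians of RED lay close together in the classes of long pairs made by these features. The median RED was 0.02 in the 200 long pairs with more UGUA at the dPAS, −0.06 in the 144 with as many at both sites and 0.045 in the 80 with fewer. Spearman's rank correlation between RED and the difference in UGUA was −0.029 over the 424 genes, and −0.075 over the 2299 closer pairs. With a signal at the dPAS alone the median RED was −0.025 (170 pairs), and with a signal at both it was 0.01 (188 pairs). A-rich sequence (12 or more A, or 6 A in a row, in the 20 nt after the site) followed 124 pPASs (29.2%) and 54 dPASs (12.7%) of the long pairs, beside 26.3% and 9.79% in closer pairs. The median RED was −0.05 in the 124 long pairs with an A-rich pPAS (67 negative, 55 positive) and 0.035 in the other 300 (141 negative, 156 positive). Closer pairs had the same order, with −0.09 in 604 and −0.02 in 1695. With an A-rich dPAS, the median was −0.01 in 54 long pairs (28 negative, 26 positive) and 0.05 in 225 closer pairs (91 negative, 130 positive). Without any A-rich PAS, the median of the 268 remaining long pairs was 0.04 and UCK2 was the only call left. The part of A-rich sequence in the RED values was not tested.

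The stretch present only in the long isoform held more matches to short motifs per gene than that of the next class, while the density of UGUA, ATTTA and TGTANATA was not higher. UGUA occurred 5.57 times per 1000 nt between the PASs of long pairs and 5.98 times from 1000 to under 2500 nt. ATTTA, the core of AU-rich elements, occurred 2.26 and 2.31 times per 1000 nt, and at least once in 416 of the 424 long pairs. TGTANATA, the Pumilio motif, occurred at least once in 196 long pairs (46.2%), beside 29.1% from 1000 to under 2500 nt, at 0.196 and 0.245 per 1000 nt. The 7-mer GCACTTT, which pairs with bases 2 to 8 of miR-17-5p, was found in 211 long pairs (49.8%), beside 18.5% of all pairs, and TGCTGCT, that of miR-16-5p, in 176 (41.5%), beside 15.9%. AGCATTA, that of miR-155-5p, was found in 98 long pairs (23.1%), beside 8.01% of all pairs. CTACCTC, that of let-7a-5p, was found in 79 (18.6%), beside 6.61%, and AACTGAC, that of miR-223-3p, in 72 (17.0%), beside 6.24%. Per 1000 nt, the match of miR-17-5p occurred 0.197 times in long pairs and 0.193 times from 1000 to under 2500 nt, and that of miR-16-5p 0.161 and 0.178 times, so the higher shares of long pairs go with the length that defined them. The 3510 nt that UCK2 gains in its long isoform held 1 match each for miR-155-5p, miR-16-5p and miR-17-5p. The 2592 nt of TBL1XR1 held 2 for miR-16-5p and 0 for the other 4, and 5 ATTTA. The stretch of CDK6 held 25 ATTTA, 2 matches for miR-16-5p and 1 for miR-17-5p. These searches were on the transcript strand, overlapping matches were counted, and the levels of these microRNAs were not analysed here.

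The long pairs came from genes of many roles. Of 16 lists of genes by role or by the start of the symbol, 14 had at least 3 long pairs, and 128 of the 424 genes were in a list. The lists do not hold every gene of a role, and 296 long pairs were in none. Shares, counts, medians and lowest p given by list below are those of the listed genes alone. Long pairs made up 33.3% of the solute carrier genes in the table (16 of 48), 22.1% of the ubiquitin system (29 of 131), 14.4% of membrane traffic (16 of 111), 13.6% of zinc finger genes (11 of 81), 15.4% of protein kinases (8 of 52) and 15.1% of RNA-binding and small RNA genes (11 of 73), beside 15.6% of all genes. Of the 28 listed genes of adhesion and actin, 1 had a long pair (CD44, RED 0.09), and of the 12 listed monocyte and macrophage genes, 0. The long pairs of CD180 and SPN, described above, were outside these lists. No test of these shares was run.
Of 5 listed long pairs of NF-κB and innate signaling, TBL1XR1 was shortened and 4 were not called, with a median RED of −0.22 beside −0.03 over all genes. The pPAS was A-rich in 3 of the 5, with a negative RED in 2 and a positive RED in 1. TRAF6, a ubiquitin ligase upstream of the kinase TAK1, had a RED of −0.68 and the adaptor TRAF3 one of 0.46. REL had a RED of −0.22 and CYLD, a deubiquitinase of this pathway, one of 0.28, all with adjusted p-values of 0.814 or more. CD180 of the Toll-like receptor family (0.98) was not in this list, so the median is not that of every long pair of this role. Of 3 listed long pairs of the cell cycle, UCK2 was lengthened and CDK6 and CCNG2 were not called. UCK2 and TBL1XR1 are in these lists because they were named from these samples, so their counts are not independent evidence.
None of 3 long pairs of cleavage and polyadenylation factors was called, beside 0.367% of all genes. NUDT21 itself had a long pair, 3488 nt apart and 87 and 3575 nt past the stop codon, with −0.49 RED, adjusted p 0.643. The overexpression construct holds the coding sequence alone, so these are PASs of the endogenous gene, and the value checks neither the overexpression nor the labels. PAPOLG, a poly(A) polymerase, had a RED of −0.24, and CPSF6, the CFIm68 partner of CFIm25, one of 0.01. VMA21 (0.00) and the metalloprotease inhibitor gene TIMP2 (0.02), studied earlier as CFIm25-sensitive genes, were not called either, with adjusted p-values of 0.998 and 0.983.

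Over all genes, 0.367% were called, so no call in a list of the sizes below is near that share. The RED threshold alone was passed upward by 21.7% and downward by 27.1% of all genes. None of the 16 long pairs of solute carriers was called, with RED values from −0.59 to 0.44, a median of −0.09 and adjusted p-values of 0.405 or more. SLC38A1, a glutamine transporter, had a RED of −0.45, SLC35A3 one of −0.59 and SLC35B4 one of −0.57, the latter both carriers of nucleotide sugars. SLC7A1, a cationic amino acid transporter that tied with SLC35B4 in adjusted p, had a RED of 0.32. The pPAS was A-rich in 9 of the 16, these 4 included, with a negative RED in 6 and a positive RED in 3. None of the 29 long pairs of the ubiquitin system was called, with a median of 0.05, 8 above and 5 below the RED threshold. KLHL5 (0.58), RNF24 (0.40) and RNF216 (−0.48) had the lowest p of these, from 0.627 to 0.699. The pPAS was A-rich in 12 of the 29, RNF24 included, with a negative RED in 6 and a positive RED in 6. In membrane traffic (16 long pairs, none called, median 0.04), AP1G1, a subunit of the clathrin adaptor AP-1, had a RED of −0.79 and the Golgi SNARE gene GOSR1 one of −0.60, both with an adjusted p of 0.474, and AP5B1 had one of 0.50.
None of 11 long pairs of RNA-binding and small RNA genes was called, with a median of −0.17, 0 above and 5 below the threshold. RBM12B (−0.84), RBM14 (−0.40) and AGO1 (−0.33), a paralog of AGO2, had the lowest p, which was 0.536 or more. None of 8 listed protein kinase pairs was called (median −0.20, 0 above and 3 below). In p, CDK6 was followed by RPS6KA3, the kinase RSK2 (−0.41), and the insulin receptor gene INSR (−0.27). The pPAS was A-rich in 6 of the 8 listed kinases, RPS6KA3 and INSR included, with a negative RED in 4, a positive RED in 1 and a RED of 0 in 1. PDK3, a kinase gene with a RED above the threshold (0.28), was not in this list. The list of other transcription factors did not hold HOXA13 and POU2F1. Of the 9 long pairs in it (median −0.26, 1 above and 4 below, none called), ELK4 had a RED of −0.92, ATF6 one of −1.01 and CEBPG one of −0.40. FOXO3, which tied with CEBPG in adjusted p, had the value above the threshold, 0.28. The pPAS was A-rich in 5 of the 9, ELK4, ATF6 and FOXO3 included, with a negative RED in 3 and a positive RED in 2. It was A-rich in 4 of the 11 RNA-binding and small RNA genes (1 negative, 3 positive), 4 of the 11 zinc finger genes (3 negative, 1 positive) and 2 of the 16 membrane traffic genes (1 negative, 1 positive). The part of A-rich sequence in the values of these lists was not tested. Of 11 zinc finger genes (median −0.10, none called), 4 lay below the threshold, KLF3 and ZNF507 (−0.64) among them, and 2 above it, with ZNF134 at 0.82. The 5 listed chromatin genes ranged from 0.11 to 0.44. Of these 5, the lowest p went with CBX5, the acetyltransferase gene KAT7 (0.21) and DNMT3A, a DNA methyltransferase (0.26). RAD54L2 of the SNF2 family (−0.91), which had a lower p, was not in this list. Of 5 listed phosphatases, the lowest p went with PPM1A (0.80), MTMR3 (1.15) and MTMR12 (0.05). The phosphatase-like CTDSPL2 (0.76) had a lower p and was not in this list. None of the listed chromatin genes or phosphatases was called.

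**Figure D5:**
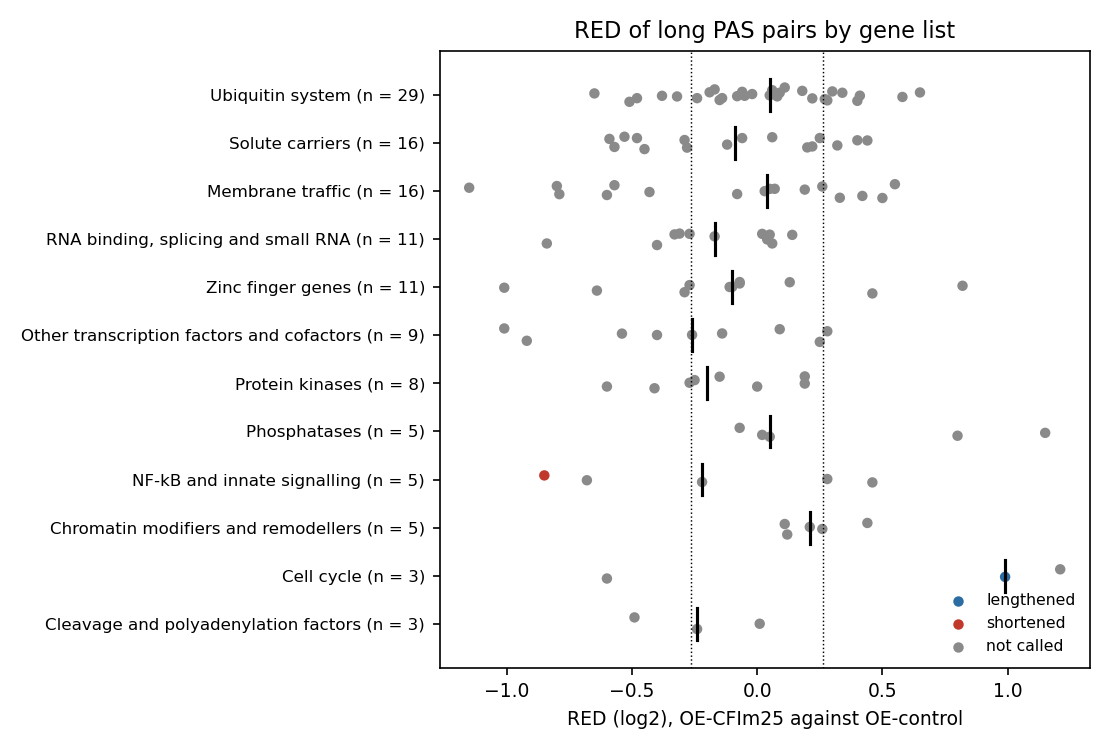
RED (log2, x axis) of the long pairs in each of 12 gene lists with at least 3 of them (y axis, number of long pairs in parentheses), with 1 point per gene, a bar at the median and dotted lines at the RED threshold. The only colored points are UCK2 (blue, lengthened) and TBL1XR1 (red, shortened), and in most lists the points lie on both sides of 0.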

How the data were processed

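Read 2 of the QuantSeq FWD libraries was trimmed by the authors and aligned with STAR 2.7.7a to hg19. Reads whose ends matched a PAS of PolyA_DB were scaled to each sample's total, and for each gene the authors set the groups against each other at its 2 most used PASs of the terminal 3’ UTR. The authors deposited RED, a log2 value, and an adjusted p-value for each gene, and the number of reads (counts) of each library. The p column is headed as from a Fisher test, whereas the methods name DEXSeq. The adjustment behind it is not given in the sources at hand. These columns hold the only measurements of the comparison and were used as deposited.

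From 2724 deposited rows, 1 that repeated MEMO1 in all but its description was dropped. Sequence came from GRCh37, the build of hg19, and annotation from GENCODE release 44 mapped to it, with a PAS allowed 24 nt past an annotated end. Genes were matched by symbol or RefSeq synonym. The members and the gene lists were chosen with earlier results of these data known. Named genes were taken from the called long pairs, the 10 of highest and of lowest RED, those of lowest adjusted p, the 10 longest, 3 on each side of the limit and the 3 of lowest p of each list. Other genes named for their annotation or motif counts, for a tie, or as examples from a list of at most 5, were chosen after their values were seen. Medians, quartiles and counts were computed with Python 3.11.15, numpy 2.4.6, pandas 2.3.3, scipy 1.17.1 and pysam 0.24.0, and figures drawn with matplotlib 3.10.9. Scripts were tested on simulated data. Alternatives were other limits of distance, RED and p, the mean, and leaving out A-rich or differently annotated pairs. Leaving out a sample and a replicate block were planned and not run, since the only values are those of the comparison. Some genes that the rule takes, their lists and 1 sequence are not reported here.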

Additional observations from a re-analysis of the deposited data

How the results depend on the processing

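The median RED of long pairs was 0.00 with limits of 2000 and 3000 nt and without the pairs outside 1 annotated last exon, 0.04 without A-rich pairs, and −0.0063 as a mean. The interquartile range ran from 0.50 to 0.593 and the share of negative RED from 46.6% to 49.6% over these alternatives. The 2 calls stayed with no RED threshold and with one of log2(1.5), and an adjusted p under 0.10 added SNRPD3, giving 3. With a limit of 3000 nt, 1 call was left (UCK2), since the PASs of TBL1XR1 lie 2592 nt apart, and without A-rich pairs 1 call was left, since the pPAS of TBL1XR1 is A-rich. The share of pPASs with a signal, 53.1%, was 67.9% without A-rich pairs and 50.2% to 54.4% in the other alternatives, which were chosen after seeing the data. No paired analysis was possible because RED is a single value per gene, with nothing per library to pair. With no reads per PAS in the table, pairs too shallow to be called cannot be told from the rest.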
